A study of Rattus norvegicus with 6 samples.

Results

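The insulin-like growth factor (IGF) family was followed by RNA sequencing in the rat cell line H9c2, which comes from embryonic myocardium. The 10 genes were taken by symbol from a table of 26126 entries: the ligands Igf1 and Igf2, the receptors Igf1r and Igf2r, and the binding proteins Igfbp2, Igfbp3, Igfbp4, Igfbp5, Igfbp6 and Igfbp7. The list names genes and sets no limit on values, but it was proposed with the fold changes of this comparison known, so its members count as chosen by those values, with Igfbp5 among the largest falls. The group values and p-values of the members are therefore a description of these libraries and are not independent evidence.

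The libraries formed 2 groups, 3 with an adenovirus labelled adPERK and 3 with a control adenovirus. PERK, the product of Eif2ak3, is a kinase of the endoplasmic reticulum that lowers protein synthesis under stress. The cells of both groups went through simulated ischemia-reperfusion, which included a spell in acidic buffer under nitrogen and carbon dioxide. No library therefore shows unstressed cells. The cells are 1 line, and since no label names separate cultures, the spread that p-values rest on may be technical.

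IGF1 and IGF2 are small secreted hormones that act through the tyrosine kinase receptor IGF1R and promote growth, survival and, in myoblasts, differentiation. IGF2R binds IGF2 and carries it to lysosomes for breakdown. The binding proteins hold IGFs in the extracellular space and can withhold them from the receptor or deliver them to it. Proteases such as PAPP-A cut some of the binding proteins and set the IGFs free.

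The largest library, PERK-labelled replicate 2, held 119087414 counts and the smallest, control replicate 3, held 77923398. Control replicate 3 stood apart, with 19287 entries above 0 against 15377 to 16685 in the other 5 libraries. It also had counts at 45.4% of olfactory receptor entries, against 6.24% to 14.5% in the other 5. Eif2ak3 was not higher in the PERK-labelled libraries, at 26.5, 26.5 and 26.0 CPM (counts scaled to the same library total), against 26.4, 26.9 and 24.0 CPM in control libraries (log2 fold change 0.03, SE 0.06, edgeR adjusted p = 0.887). The targeted gene thus does not check the labels, and directions below rest on the labels alone. Skeletal myoblast markers summed to 1174 to 1252 CPM in PERK-labelled libraries and 1250 to 1308 CPM in control libraries. Most of these sums came from Cdh15 and Myog, while Des lay between 4.78 and 5.98 CPM. Myf6 reached at most 0.163 CPM and Pax7 at most 0.847 CPM, and Myf5 was at 0 in all 6 libraries. Cardiomyocyte markers summed to 162 to 184 CPM in PERK-labelled libraries and 164 to 177 CPM in control libraries, nearly all from Tnnt2, and Nppa and Nppb, the natriuretic peptide genes of heart muscle, were at 0 in all 6. Endothelial markers summed to at most 1.27 CPM in PERK-labelled libraries and 2.75 CPM in control libraries. That control value came from control replicate 3, the only library with counts of Esam and Cdh5. Leukocyte markers summed to at most 11.05 CPM in PERK-labelled and 12.3 CPM in control libraries. Hepatocyte markers summed to at most 0.179 CPM in PERK-labelled and 0.316 CPM in control libraries. Epithelial markers summed to 53.2 to 54.3 CPM in PERK-labelled libraries and 48.7 to 52.8 CPM in control libraries, carried by Krt8 and Krt7, with Krt19 at 0 in all 6.

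Igfbp5 fell in the PERK-labelled libraries, and it was the only 1 of the 8 tested members that passed the test. Igfbp2 and Igfbp3 were too low to test. In edgeR's quasi-likelihood test with Benjamini-Hochberg adjustment over all 14488 tested entries, 61 entries changed at 0.05, which is 0.421% of them; 0.311% rose and 0.11% fell. Since the members were chosen with this comparison known, nothing is read from the 1 in 8. The median log2 fold change was 0.03 over the 8 members and -0.0045 over all tested entries, and the median size without sign was 0.11 over the members and 0.0995 over all entries. Values in CPM are not divided by gene length, so they compare libraries for a gene and not genes with each other. In bulk RNA, fewer cells with a transcript and less of it in each cell cannot be told apart.

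The start region of Igfbp5 is shown because it is the member that changed, and that of Igfbp4, the related binding protein that it is set against below, for comparison. Both run from 250 bases before to 50 bases after the gene start in the RefSeq annotation of GRCr8, read on the gene's strand. The Igfbp5 window lies at chr9:81914138-81914437 on the minus strand and the Igfbp4 window at chr10:84491221-84491520 on the plus strand. Capitals mark TATAAA and the E-box CANNTG, which basic helix-loop-helix factors such as myogenin can bind.
Igfbp5: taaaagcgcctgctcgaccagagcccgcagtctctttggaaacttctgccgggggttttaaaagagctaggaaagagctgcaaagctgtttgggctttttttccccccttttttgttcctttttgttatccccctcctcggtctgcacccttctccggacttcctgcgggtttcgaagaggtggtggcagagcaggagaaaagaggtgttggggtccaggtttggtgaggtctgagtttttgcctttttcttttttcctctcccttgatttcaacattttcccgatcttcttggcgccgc
Igfbp4: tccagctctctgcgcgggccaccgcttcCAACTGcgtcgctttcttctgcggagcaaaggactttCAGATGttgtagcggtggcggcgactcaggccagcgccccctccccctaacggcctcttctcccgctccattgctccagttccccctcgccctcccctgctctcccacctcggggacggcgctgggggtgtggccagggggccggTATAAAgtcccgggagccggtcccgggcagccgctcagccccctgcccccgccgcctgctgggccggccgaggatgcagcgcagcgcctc

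Of 6 motifs searched on both strands, the Igfbp5 window held none. The 6 were the TATA box TATAAA, the CCAAT box, the GC box GGGCGG, the E-box CANNTG, the AP-1 site TGANTCA and the amino acid response element TGATGNAA. The last is bound by dimers of ATF4, the factor that PERK activity raises. Igfbp4 held TATAAA, which stands in 14.2% of 33469 such windows, and 2 E-boxes, a motif found in 72.1% of windows. Neither TGATGNAA, in 4.0% of all windows, nor TGANTCA, in 7.3%, was found in any of the 11 windows of the 10 members (Igf2 has a pair of starts). CCAAT, in 37.5% of all windows, was in none of the 11 either, and GGGCGG, in 33.1%, was in 6. The G and C content was 50.7% for Igfbp5 and 71.0% for Igfbp4, against a median of 51.7% over all windows. These letters describe the windows only, and nothing follows from a missing match about any factor.

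The ligands are given first. Igf2, the fetal growth factor that myoblasts secrete as they differentiate, took 0.425%, 0.460% and 0.450% of all counts in PERK-labelled replicates 1 to 3, and 0.432%, 0.438% and 0.421% in control replicates 1 to 3. Its level was 4337, 4578 and 4511 CPM in PERK-labelled libraries, against 4329, 4294 and 4210 CPM in control libraries. The groups touched without overlapping, since PERK-labelled replicate 1 and control replicate 1 were nearly level. This is a log2 fold change of 0.07 (SE 0.03, 95% interval -0.0018 to 0.13, edgeR adjusted p = 0.456). Groups did not overlap for 2 of the 8 members, Igf2 and Igfbp5, and for 18.2% of all tested entries.

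Igf1, the ligand of highest affinity for IGF1R, stood at 5.79, 13.9 and 6.98 CPM in PERK-labelled replicates 1 to 3, against 12.4, 13.4 and 12.3 CPM in control replicates 1 to 3. PERK-labelled replicates 1 and 3 lay below every control library, while PERK-labelled replicate 2 lay above them all. Counts behind these values were 572, 1663 and 625 in PERK-labelled libraries and 1369, 1104 and 958 in control libraries. The coefficient of variation was 49.2% among PERK-labelled libraries and 4.67% among control libraries. The log2 fold change was -0.51 with a wide interval of -1.17 to 0.16 (SE 0.29, edgeR adjusted p = 0.55). Without PERK-labelled replicate 2 it was -0.99 (edgeR adjusted p = 0.0537), and without PERK-labelled replicates 1 or 3 it was -0.28 and -0.36.

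**Figure D1:**
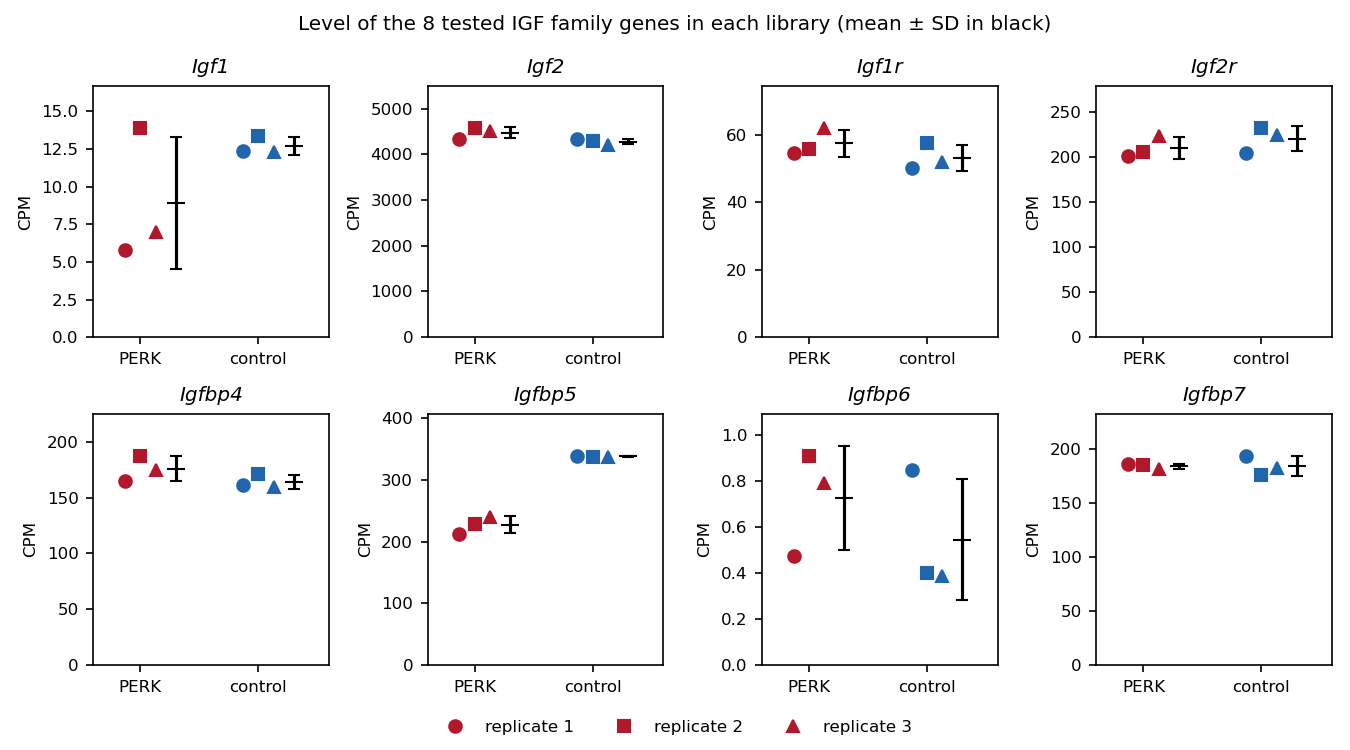
Level in CPM of the 8 tested IGF family genes in each library, PERK-labelled in red and control in blue, with marker shapes for replicates 1 to 3 and the mean ± SD of 3 libraries in black. Igfbp5 is lower in all 3 PERK-labelled libraries (212 to 240 CPM) than in the control libraries (338 to 340 CPM), and Igf1 is low in PERK-labelled replicates 1 and 3 but not in replicate 2.

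The receptors did not pass the test. Igf1r, the signalling receptor, was 54.5, 55.8 and 62.0 CPM in PERK-labelled libraries, against 50.01, 57.4 and 51.9 CPM in control libraries. Igf1r had a log2 fold change of 0.11 (SE 0.07, interval -0.05 to 0.27, edgeR adjusted p = 0.591), and the groups overlapped. Igf2r, the clearing receptor, was 200, 206 and 223 CPM in PERK-labelled libraries, against 205, 232 and 224 CPM in control libraries, with a log2 fold change of -0.07 (SE 0.06, interval -0.20 to 0.06, edgeR adjusted p = 0.713). The counts of Igf2 over those of Igf2r within a library were 21.6, 22.3 and 20.2 in PERK-labelled libraries and 21.2, 18.5 and 18.8 in control libraries, and these ranges overlapped.

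Igfbp5, a binding protein that attaches to extracellular matrix and is known to rise when myoblasts differentiate, was 212, 229 and 240 CPM in PERK-labelled replicates 1 to 3, against 340, 338 and 338 CPM in control replicates 1 to 3. All 3 PERK-labelled libraries lay below all 3 control libraries, and the control libraries were nearly equal. The mean was 227 ± 13.8 CPM in PERK-labelled and 338 ± 1.14 CPM in control libraries (SD, n = 3 each), with a coefficient of variation of 6.1% among PERK-labelled and 0.338% among control libraries. The level in PERK-labelled libraries was 0.671 times that in control libraries, and the 95% interval of the fold ran from 0.625 to 0.721. On the log2 scale it fell by 0.58 (SE 0.04, edgeR adjusted p = 0.0032). By p-value Igfbp5 ranked 5 of the 14488 tested entries and first among the 16 that fell. By size of the fall it ranked 5 among those 16.

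Igfbp4, a binding protein that mainly withholds IGFs from the receptor, was 165, 188 and 175 CPM in PERK-labelled libraries, against 162, 171 and 159 CPM in control libraries. The groups overlapped, and the log2 fold change was 0.10 (SE 0.05, interval -0.02 to 0.23, edgeR adjusted p = 0.515). Igfbp7, a more distant relative with weak affinity for IGFs, was 185, 185 and 181 CPM in PERK-labelled libraries, against 193, 176 and 182 CPM in control libraries. Igfbp7 had a log2 fold change of -0.0016 (SE 0.04, edgeR adjusted p = 0.993), and the interval of -0.10 to 0.10 leaves room for differences of up to 0.10 either way. Polr2b, a subunit of RNA polymerase II, overlaps Igfbp7 in the RefSeq annotation, and whether the counting used strand is not stated in the labels. Polr2b had a log2 fold change of 0.0033 (edgeR adjusted p = 0.986).

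**Figure D2:**
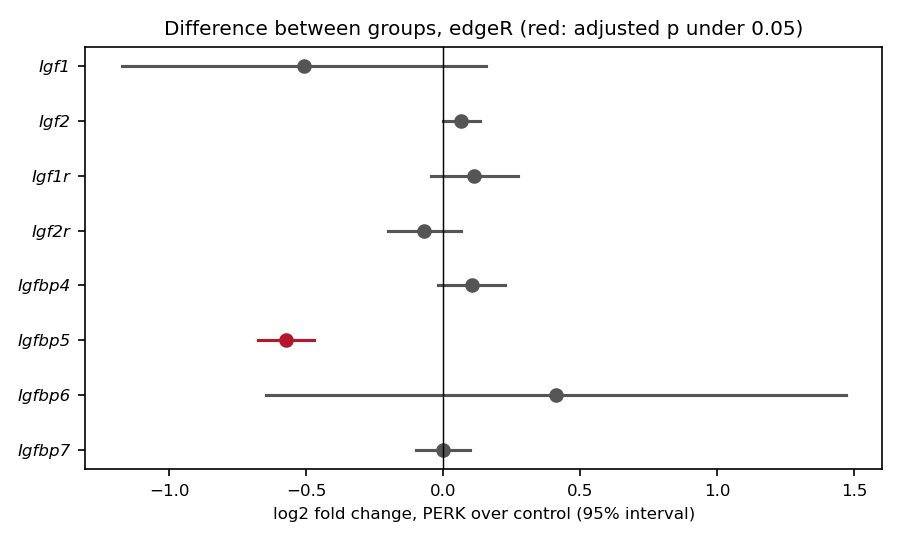
Log2 fold change of PERK-labelled over control libraries for the 8 tested members, with 95% intervals from the edgeR fit across all entries. The Igfbp5 interval, -0.68 to -0.47, is the only 1 of the 8 that lies wholly on one side of 0, and those of Igf1 and Igfbp6 are the widest.

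Igfbp6, which prefers IGF2 over IGF1, was near the low end of the data with 47, 109 and 71 counts in PERK-labelled libraries, against 94, 33 and 30 counts in control libraries. That is 0.476, 0.911 and 0.793 CPM in PERK-labelled libraries and 0.849, 0.399 and 0.385 CPM in control libraries. Control replicate 1 lay among the PERK-labelled libraries and PERK-labelled replicate 1 nearer to the other control libraries. The log2 fold change of 0.41 had an interval of -0.65 to 1.47 (SE 0.46, edgeR adjusted p = 0.8), so a difference in either direction could not be told. The coefficient of variation was 31.0% among PERK-labelled and 48.5% among control libraries. Single libraries moved the Igfbp6 value, which was 0.89 without control replicate 1 and 0.64 without PERK-labelled replicate 1. It was 0.21 without PERK-labelled replicate 2, 0.21 without control replicate 3 and 0.23 without control replicate 2.

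Igfbp3, the main carrier of IGFs in blood, had 0 counts in all 3 PERK-labelled libraries, and 0, 0 and 11 in control replicates 1 to 3. Igfbp2, a fetal binding protein, had 6, 0 and 0 counts in PERK-labelled libraries and 0, 0 and 3 in control libraries. Neither exceeded 18 counts in a library, the limit used here for a gene near 0 (3 steps of about 6 counts), so no fold is given. That limit equals 0.15 to 0.231 CPM, and such limits reflect counting error alone. The single library with Igfbp3 counts was control replicate 3, which also had the most entries above 0. Igfbp1, a liver binding protein outside the list, was at 0 in all 6 libraries. In the annotation Igfbp2 is a direct neighbour of Igfbp5, and Igfbp3 of Igfbp1. Thus this neighbour of the changed gene was itself near 0. The neighbour of Igfbp5 on the other side was not found by symbol among the counted entries.

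The authors' deposited table lists Igfbp3 with a log2 fold change of -4.50 and an adjusted p of 0.0251, although the 6 libraries hold 11 counts of it in all. The authors' deposited table gives Igfbp3 a mean expression of 1015, against a mean of 1.96 over the 6 normalized columns of that table. For Igfbp2 the 2 values are 145 and 1.38, for Igfbp6 439 and 52.9, and for Igf2r 40506 and 17891, while Igf2 has 148111 against 364129, all in the authors' deposited table. Their mean is therefore not the mean of these 6 libraries, and the labels do not state what it covers. For Igfbp5 the authors' deposited table has a log2 fold change of -0.57 with an adjusted p of 0.00339. Its mean expression there is 12183, against 23517 over the 6 normalized columns, so the basis of these values is not known either. In it 2.27% of the 17483 entries with an adjusted p lie under 0.05, and the other 8 members have adjusted p-values of 0.673 or more.

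Within a library, counts of Igfbp5 were set against those of Igfbp4 and Igfbp7, which do not depend on the scaling between libraries. Igfbp5 counts over Igfbp4 counts were 1.29, 1.22 and 1.37 in PERK-labelled libraries, against 2.10, 1.98 and 2.12 in control libraries. Igfbp5 counts over Igfbp7 counts were 1.146, 1.24 and 1.32 in PERK-labelled libraries, against 1.76, 1.92 and 1.85 in control libraries. Both ratios were lower in every PERK-labelled library than in any control library. Of the counts of Igfbp2 to Igfbp7 together, Igfbp5 held 38.6 ± 1.35% in PERK-labelled libraries and 49.3 ± 0.428% in control libraries (SD, n = 3 each). The summed level of the 6 binding proteins was 563, 602 and 597 CPM in PERK-labelled libraries, against 696, 685 and 680 CPM in control libraries. These ratios use the same counts as the Igfbp5 comparison and add no separate support for it.

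**Figure D3:**
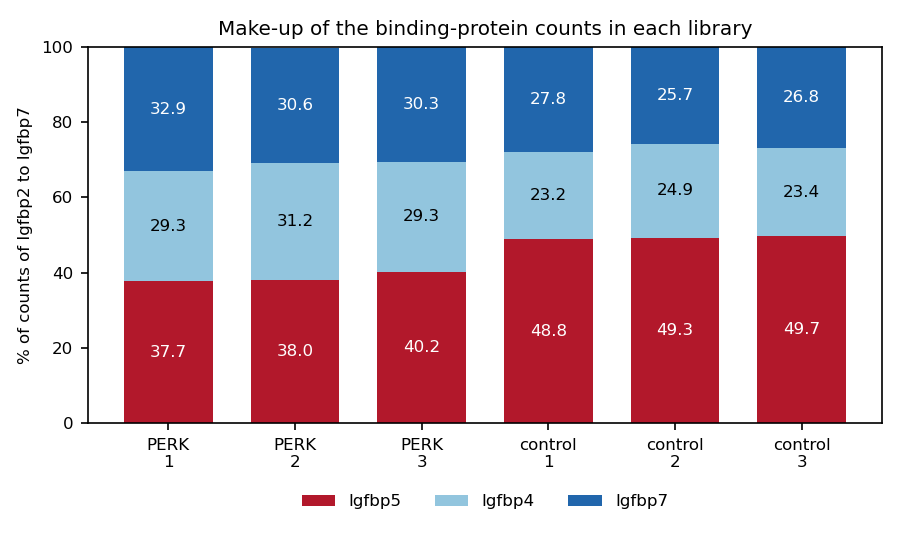
Share in percent of the counts of Igfbp2 to Igfbp7 that each of Igfbp5, Igfbp4 and Igfbp7 held in each library, PERK-labelled replicates on the left and control replicates on the right, with Igfbp2, Igfbp3 and Igfbp6 too few to be seen. Igfbp5 holds 37.7% to 40.2% in PERK-labelled libraries and 48.8% to 49.7% in control libraries.

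The fall of Igfbp5 held with any 1 library left out. The log2 fold change ranged from -0.61 without PERK-labelled replicate 3 to -0.53 without PERK-labelled replicate 1, and the edgeR adjusted p from 0.00627 to 0.0241. Without control replicate 3, the library that stood apart, it was -0.58 (edgeR adjusted p = 0.0237). No other member passed the test in any of these 6 fits. The fits reuse the values by which the members were chosen, so they add no separate support for the fall of Igfbp5.

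**Figure D4:**
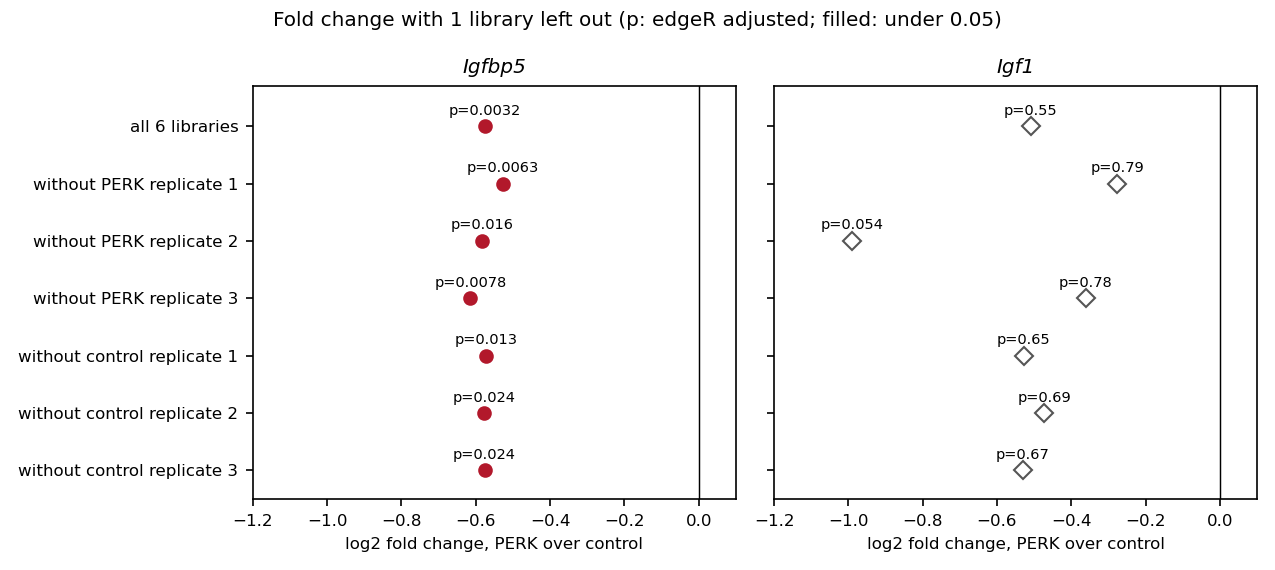
Log2 fold change of PERK-labelled over control libraries for Igfbp5 and Igf1 with all 6 libraries and with each library left out, filled circles for an edgeR adjusted p under 0.05 and open diamonds otherwise. Igfbp5 stays between -0.61 and -0.53, while Igf1 moves to -0.99 without PERK-labelled replicate 2 and to -0.28 without PERK-labelled replicate 1.

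Genes that act on the family were described from 6 lists of 118 distinct genes, of which 95 were tested. Of these, 3 rose and 1 fell, or 4.21%, against 0.421% of all tested entries, and their median log2 fold change was 0.0040. The lists were written with earlier results known, including those of genes that changed, so their share is not compared with the background by a test.

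Among 21 tested proteases and inhibitors, 1 rose and 0 fell (median log2 fold change 0.05). The riser was Stc2, stanniocalcin 2, a secreted glycoprotein that binds and blocks the protease PAPP-A. It was 45.3, 41.7 and 39.5 CPM in PERK-labelled libraries, against 31.5, 31.5 and 31.2 CPM in control libraries (log2 fold change 0.42, SE 0.05, edgeR adjusted p = 0.0217). Without 1 library Stc2 passed in 1 of 6 fits, that without PERK-labelled replicate 3, with edgeR adjusted p from 0.0477 to 0.108 over the 6. Pappa, which encodes PAPP-A, a protease that cuts IGFBP4, was 44.6, 49.5 and 51.1 CPM in PERK-labelled libraries, against 42.5, 48.7 and 46.5 CPM in control libraries. Pappa had a log2 fold change of 0.08 (SE 0.07, edgeR adjusted p = 0.739), and its groups overlapped. Stc1, the related inhibitor, was low at 0.659 ± 0.137 CPM in PERK-labelled and 0.935 ± 0.344 CPM in control libraries (SD, n = 3 each; log2 fold change -0.51, edgeR adjusted p = 0.666).

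Of 10 tested binding partners of IGFBP5, most of them in matrix and membrane, 2 rose and 0 fell (median 0.13). Thbs1, thrombospondin 1, a matrix protein that binds IGFBP5, averaged 5181 ± 125 CPM in PERK-labelled and 4583 ± 70.6 CPM in control libraries (SD, n = 3 each; log2 fold change 0.18, edgeR adjusted p = 0.0466). Fhl2, a LIM domain cofactor that interacts with IGFBP5, was 61.1 ± 1.65 CPM in PERK-labelled and 49.7 ± 1.16 CPM in control libraries (SD, n = 3 each; log2 fold change 0.30, edgeR adjusted p = 0.0365). Neither call held in any of the 6 fits with 1 library left out, where edgeR adjusted p ran from 0.0914 to 0.184 for Thbs1 and from 0.0963 to 0.176 for Fhl2.

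No gene of the receptor branch passed the edgeR test with all 6 libraries. Insr, the insulin receptor, which can pair with IGF1R, was 29.2, 28.1 and 29.1 CPM in PERK-labelled libraries, against 27.6, 29.8 and 31.0 CPM in control libraries (log2 fold change -0.03, edgeR adjusted p = 0.867). Igf2bp2, an RNA-binding protein named for its binding to IGF2 mRNA, had a log2 fold change of -0.09 (edgeR adjusted p = 0.64). These are the most abundant of 6 tested further ligands, receptors and binding proteins (median -0.05). The adaptors and the PI3K-AKT branch had 0 changed of 31 tested (median 0.0022). In it Irs1 and Irs2, the docking proteins of the receptor, had log2 fold changes of -0.06 and 0.14 (edgeR adjusted p = 0.797 and 0.538). Akt1, the kinase of this branch, was 290 ± 8.96 CPM in PERK-labelled and 296 ± 6.06 CPM in control libraries (SD, n = 3 each).

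Grb10, an adaptor that restrains the receptor, was 324, 323 and 326 CPM in PERK-labelled libraries, against 387, 365 and 366 CPM in control libraries. Its groups did not overlap, and it lay just outside the threshold (log2 fold change -0.20, SE 0.03, edgeR adjusted p = 0.055). Grb10 passed under 5 of the 15 alternatives. Adjusted p was 0.0403 among entries with a mean of at least 50 counts, 0.0394 with counts divided by 6 and 0.0245 in limma voom. It was 0.0114 with robust estimation in edgeR and 2.2e-07 in DESeq2. Grb10 did not pass under the other alternatives. These include every fit with a library left out and the fit with the replicate number as a block. FOXO factors and genes they regulate, which AKT signalling holds down in many cells, had 0 changed of 13 tested (median -0.08). Of the 13, 4 lay above 0 and 9 below. The most abundant of the list, Cited2 and Txnip, were among those above, with log2 fold changes of 0.22 each (edgeR adjusted p = 0.173 and 0.0992). In DESeq2 both passed, with adjusted p = 0.00928 for Cited2 and 0.0017 for Txnip, and in limma voom Txnip did (adjusted p = 0.0494).

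**Figure D5:**
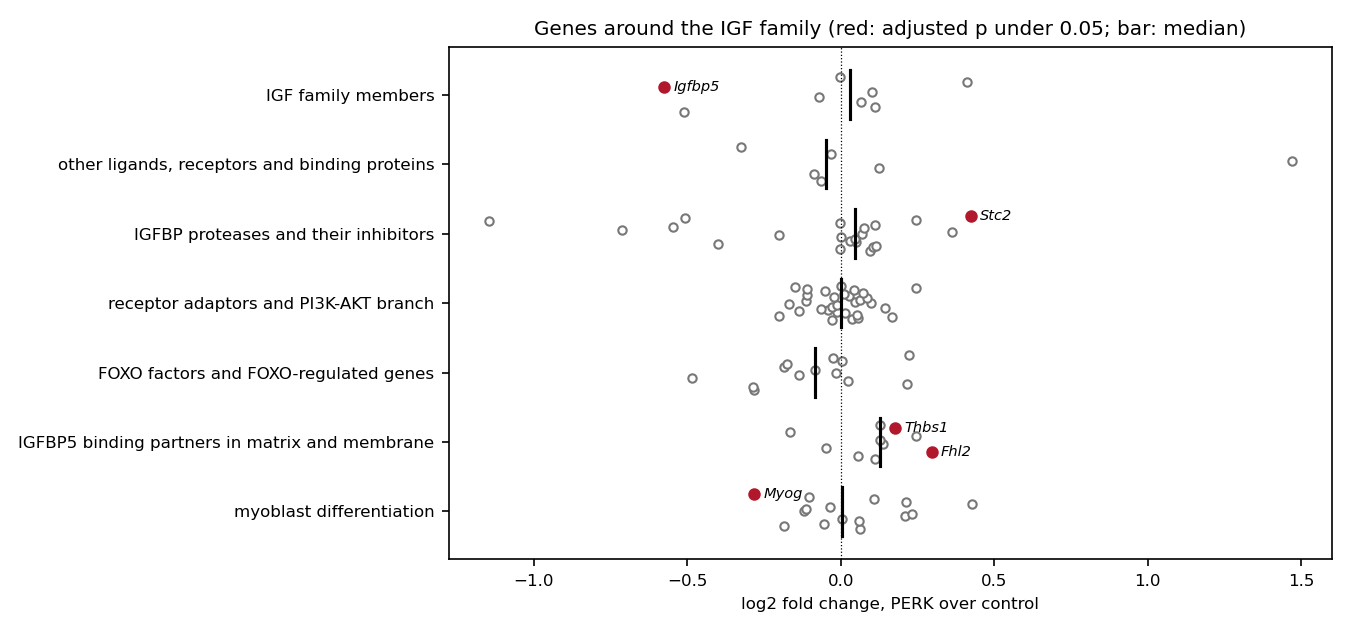
Log2 fold change of PERK-labelled over control libraries for each tested gene of the IGF family and of the 6 lists around it, with the vertical offset only separating genes, black bars for medians and red for edgeR adjusted p under 0.05. Igfbp5 and Myog lie below 0 among the 5 labelled genes, and Stc2, Thbs1 and Fhl2 above it.

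Among 15 tested genes of myoblast differentiation, a process in which Igf2 and Igfbp5 are known to be expressed, 0 rose and 1 fell (median 0.0045). Myog, the myogenic factor myogenin, was 390, 408 and 401 CPM in PERK-labelled libraries, against 474, 491 and 493 CPM in control libraries (log2 fold change -0.28, SE 0.03, edgeR adjusted p = 0.0137). With 1 library left out Myog passed only without control replicate 1, with edgeR adjusted p from 0.0261 to 0.0683 over the 6 fits. Whether the 2 falls are related was not tested.

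Profiles close to that of Igfbp5 were sought among 9084 entries with a mean of at least 5 CPM. Symbols starting with LOC, RGD, AABR or AC were left out beforehand. The 5 closest were taken by the root mean square difference of centred log2 CPM over the 6 libraries. They were Islr (0.046), Bcr (0.065), Zbtb34 (0.074), Ssh2 (0.076) and Cpt1a (0.079). Islr and Cpt1a passed the test (edgeR adjusted p = 0.0094 and 0.0137). Bcr, Zbtb34 and Ssh2 did not (edgeR adjusted p = 0.0914, 0.163 and 0.125). With 1 library left out, Islr passed in 5 and Cpt1a in 3 of the 6 fits. Islr, a secreted leucine-rich repeat protein of mesenchymal cells, was 50.7, 56.5 and 54.1 CPM in PERK-labelled libraries, against 81.6, 77.0 and 77.5 CPM in control libraries. Cpt1a, which moves fatty acids into mitochondria, was 29.6, 32.8 and 30.9 CPM in PERK-labelled libraries, against 41.9, 43.8 and 42.2 CPM in control libraries. The 5 share libraries and scaling with Igfbp5, and the measure selects genes that are lower in PERK-labelled libraries, so their likeness is a description.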

How the data were processed

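RNA from 6 H9c2 libraries was compared, 3 labelled adPERK and 3 control. The authors' deposited table gives whole-number counts per gene entry. Bowtie 0.12.2 and the mouse build mm9 are named in the submitters' processing notes, while entries carry rat symbols; no source used here gives the counting program. Per the file headers the same table holds a normalized signal, which equals counts divided by 1 factor per library, and the authors' log2 fold changes, p-values and adjusted p-values. A second table has 6 columns whose names match no label and was not used.

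Counts were scaled by TMM and filtered (filterByExpr, minimum count 10) in edgeR 4.0.16 (R 4.3.3), leaving 14488 entries, and tested by glmQLFTest with group as the only term. Standard errors are the size of the log2 fold change over the square root of F. CPM uses TMM-scaled totals. The steps were tested on simulated data. Low counts cluster in steps: the values 6 and 7 occur 3766 times over the 6 libraries and 8 and 9 occur 1352 times, so independent fragments may be fewer than counts.

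The members and lists were chosen with earlier results of these data known. Named genes are all 10 members, up to 3 changed genes of each list or its 2 most abundant, partner genes of the members, annotated neighbours and the 5 profiles nearest to Igfbp5. Start regions and neighbours come from RefSeq on GRCr8, and all 10 members matched.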

Additional observations from a re-analysis of the deposited data

How the results depend on the processing

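Results were recomputed under 15 alternatives, 6 of which leave out 1 library; Igfbp6 has 14, since DESeq2 gave it no adjusted p. Igfbp5 stayed lower and past 0.05 in all 15, between -0.61 and -0.53 on the log2 scale, and it was the 1 changed member in each. These refits use the same libraries by which the members were chosen and add no separate support for it. Of 119 member values under alternatives, 116 kept direction and side of the threshold. The other 3 are of Igfbp7, which lay at -0.0016 and moved to 0.0025 without a low-count filter and between -0.034 and 0.036 with 1 library left out. The 61 changed entries became 94 without a filter, 372 with DESeq2 1.42.0, 110 with limma 3.58.1 voom, 93 after dividing counts by 6, 132 with robust estimation, and 12 to 38 with 1 library left out. The 4 changed genes of the lists around the family became 13 with DESeq2, 7 with limma voom, 7 with robust estimation, and 0 to 1 with 1 library left out. The cause of these shifts was not tested. With the replicate number as a block there were 9 changed entries, 0 changed genes in these lists, and Igfbp5 at -0.58 (edgeR adjusted p = 0.0285). Deviations from the group means of same-numbered libraries correlated at -0.06, 0.02 and 0.04. PERK-labelled replicates 1 and 2 each correlated best with another number, and PERK-labelled replicate 3 with its own. Correlations this small cannot tell whether the numbers pair the libraries. Igfbp2 and Igfbp3 had 11 counts or fewer in every library and were too low to test. Whether greater depth would show them was not tested.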
